A study of Mus musculus with 6 samples.

Results

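The respiratory chain assembly factors are the proteins that help to build complexes I to V of the inner mitochondrial membrane without staying in the finished enzymes. The list of 44 such genes was given by name, as assembly factors and not subunits, and each name was found on 1 of the 54532 gene rows of the deposited expression table. By complex, 13 of them serve complex I, 4 complex II, 6 complex III, 18 complex IV and 3 complex V. RNA had been sequenced from 6 samples of mouse myocardium in 2 groups of 3. The first group (its samples are called TuD hearts here) had received AAV9-anti-miR-199a TuDs, an adeno-associated virus of serotype AAV9 carrying tough decoys, which are hairpin RNAs with binding sites that hold a microRNA away from the mRNAs it would act on. The second (EGFP hearts) had received Ctrl AAV9-EGFP, the same serotype carrying a green fluorescent protein gene. All 6 samples came from wild type C57BL/6 mice of 18 weeks, and per the design text all were hypertrophic, so neither group is a healthy or an uninjected heart. How hypertrophy was produced, the promoters in the viruses, the dose, the sex of the mice and whether each sample is a separate animal are not given in the sources used here, so that the p-values measure the spread between these samples, which may be in part technical.

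Complexes I to IV pass electrons from nutrients to oxygen. Complexes I, III and IV pump protons across the inner membrane, and complex V, the ATP synthase, uses the proton gradient to make ATP. Heart muscle depends on this chain more than most tissues, because it makes nearly all of its ATP by respiration. Each complex is put together stepwise from nuclear and mitochondrially encoded parts, and each step has its own helpers: chaperones that hold a half-built module, enzymes that make or insert heme, copper, flavin or iron-sulfur cofactors, and factors that couple synthesis of a mitochondrial subunit to its insertion. Loss of many of these factors causes a mitochondrial disease of a single complex in humans, often with cardiomyopathy. The roles named below are those known from mammalian cells, mostly human, unless yeast is named.

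The decoys were directed at miR-199a, whose hairpin yields 2 mature microRNAs. The labels do not say which of them the decoys bind, so both are printed. Capitals mark the seed, bases 2 to 8 from the 5′ end, with which a microRNA pairs to its targets. The sequences are from RefSeq (GRCm38.p6), and the mouse has both on 2 loci (for miR-199a-5p chr1:162217844-162217866, plus strand, and chr9:21496537-21496559, minus strand).
miR-199a-5p: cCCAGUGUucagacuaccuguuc
miR-199a-3p: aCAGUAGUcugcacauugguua
A match to either seed was found in the longest 3′ UTR (GENCODE M21) of 8 of the 40 members tested for expression, or 20.0%, beside 31.7% of the 9549 tested genes with an annotated 3′ UTR. A match was the complement of bases 2 to 8, or of bases 2 to 7 followed by an A. Among those 8 members, Ndufaf4 rose, Cox15, Cox10 and Coa5 fell, and Cox16, Cox19, Ndufaf7 and Sdhaf3 were not past the threshold in the comparison described below. The matches of the 4 that changed are printed in mRNA sense as DNA letters, with the paired bases and any A that follows in capitals. The coordinates are those of the capitals.
Cox15, miR-199a-3p (chr19:43734006-43734013, minus strand): agggacacttgACTACTGAgttgaccatct
Cox15, miR-199a-5p (chr19:43736569-43736575, minus strand): tctgagatgggCACTGGAccacgaacatt
Cox10, miR-199a-5p (chr11:63963213-63963219, minus strand): accacatttctACACTGGtacctcctaag
Coa5, miR-199a-5p (chr1:37419977-37419984, minus strand): ctcatccctaaACACTGGAatgcagcaaat
Ndufaf4, miR-199a-5p (chr4:24903818-24903825, plus strand): tactgactactACACTGGAttgcctgtatg
Ndufaf4, miR-199a-3p (chr4:24904906-24904912, plus strand): ctactttataaACTACTGtcattctaact
Of the 8 members with a match, 1 was higher and 3 were lower in TuD hearts, beside 270 higher and 574 lower of the 3023 tested genes with a match, so more were lower than higher among all such genes too. Among all tested genes, with or without a match, 15.0% were higher and 14.3% lower. Among those of 4000 bases and over, 7.16% were higher and 20.7% lower. The part of gene length in the counts of genes with a match was not tested. A match in letters does not show that a microRNA acts there.

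The deposited values are FPKM, fragments per kilobase of gene and per megaread. Multiplied by gene length, 100% of the nonzero values came out as whole reads (tolerance 0.05 of a read), and a library held 15.2 to 18.2 M reads (M, megareads). The libraries differed in ways that the labels do not describe. Summed FPKM of 4 Y-linked genes were 0.0254, 0.00711 and 12.5 in TuD replicates 1, 2 and 3, against 8.32 to 9.59 in EGFP hearts, so that 2 TuD libraries lacked them and no EGFP library did. The X-linked transcript Xist had an FPKM of 1.42, 0.128 and 0.0166 in TuD replicates 1, 2 and 3, and of 0 in every EGFP library. Genes of the mitochondrial chromosome took 11.1% to 17.5% of the reads in TuD hearts, against 5.31% to 12.0% in EGFP hearts. Of 9 markers of cardiomyocytes, the defining cells of the tissue, 4 rose, with summed levels of 30880 to 37510 normalised FPKM in TuD hearts and 27820 to 29340 in EGFP hearts. Fibroblast markers summed to 135 to 187 in TuD hearts and 139 to 149 in EGFP hearts (2 of 7 rose, 1 fell). Endothelial markers summed to 259 to 345 in TuD hearts and 201 to 252 in EGFP hearts (1 of 6 rose), and smooth muscle and pericyte markers to 126 to 243 in TuD hearts and 127 to 170.2 in EGFP hearts (1 of 5 tested rose). Macrophage markers summed to 249.7 to 498 in TuD hearts and 243 to 299.7 in EGFP hearts, and atrial markers to 154 to 214 in TuD hearts and 122 to 368 in EGFP hearts, with none past the threshold in either list. Erythroid markers summed to 1374 to 3292 in TuD hearts and 1142 to 1604 in EGFP hearts (2 of 5 rose), adipocyte markers to 3.70 to 11.4 in TuD hearts and 0.102 to 0.820 in EGFP hearts (the 1 tested rose), and T and B cell markers to 4.13 to 6.72 in TuD hearts and 2.77 to 3.49 in EGFP hearts (the 1 tested rose). For skeletal muscle markers the sums were 569 to 617 in TuD hearts and 699 to 803 in EGFP hearts (1 tested, not past the threshold, and Myh4 listed at 0 in all libraries). However, 4 of these 5 markers were under 1 normalised FPKM in every library. The sums are thus almost wholly the level of the 1 tested gene and cannot be read as a level of skeletal muscle. The part of these differences in the results below was not tested, and in bulk RNA fewer cells of a type and less RNA per cell cannot be told apart.

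The comparison asked which assembly factor transcripts differ between hypertrophic hearts with the decoys and hypertrophic hearts with EGFP. Of the 44 members, 40 reached an FPKM of at least 1 in at least 3 samples and were tested. Among these, 8 rose in TuD hearts, 9 fell and 23 did not pass an adjusted p of 0.05. As shares of the members tested, 20.0% were higher and 22.5% lower, beside 15.0% higher and 14.3% lower among all 10460 tested genes. In either direction the share was 42.5% of members and 29.3% of all tested genes. The 2 groups did not overlap for 27 of 40 members, or 67.5%, beside 47.9% of all tested genes. Fold changes are log2 of normalised FPKM plus 0.5, TuD minus EGFP, which understates the change of the lowest genes. They ran from -1.07 for Cox15 to +0.91 for Sdhaf1. The median over the members was +0.15 and that over all tested genes +0.01, with 24 of 40 members positive, but the members' median was -0.21 with values rescaled to TPM, -0.08 with a gene length correction (each library's trend with length removed) and -0.10 with a length and GC correction. With TPM the median of all tested genes was -0.36, so the members lay above it there too. By TPM 1 member was higher and 15 lower, beside 438 higher and 4202 lower of all 10460 tested genes. A tested member held 83 to 4685 reads in a library. Levels below are normalised FPKM, given per library or as mean ± SD (n = 3 in each group).

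**Figure D1:**
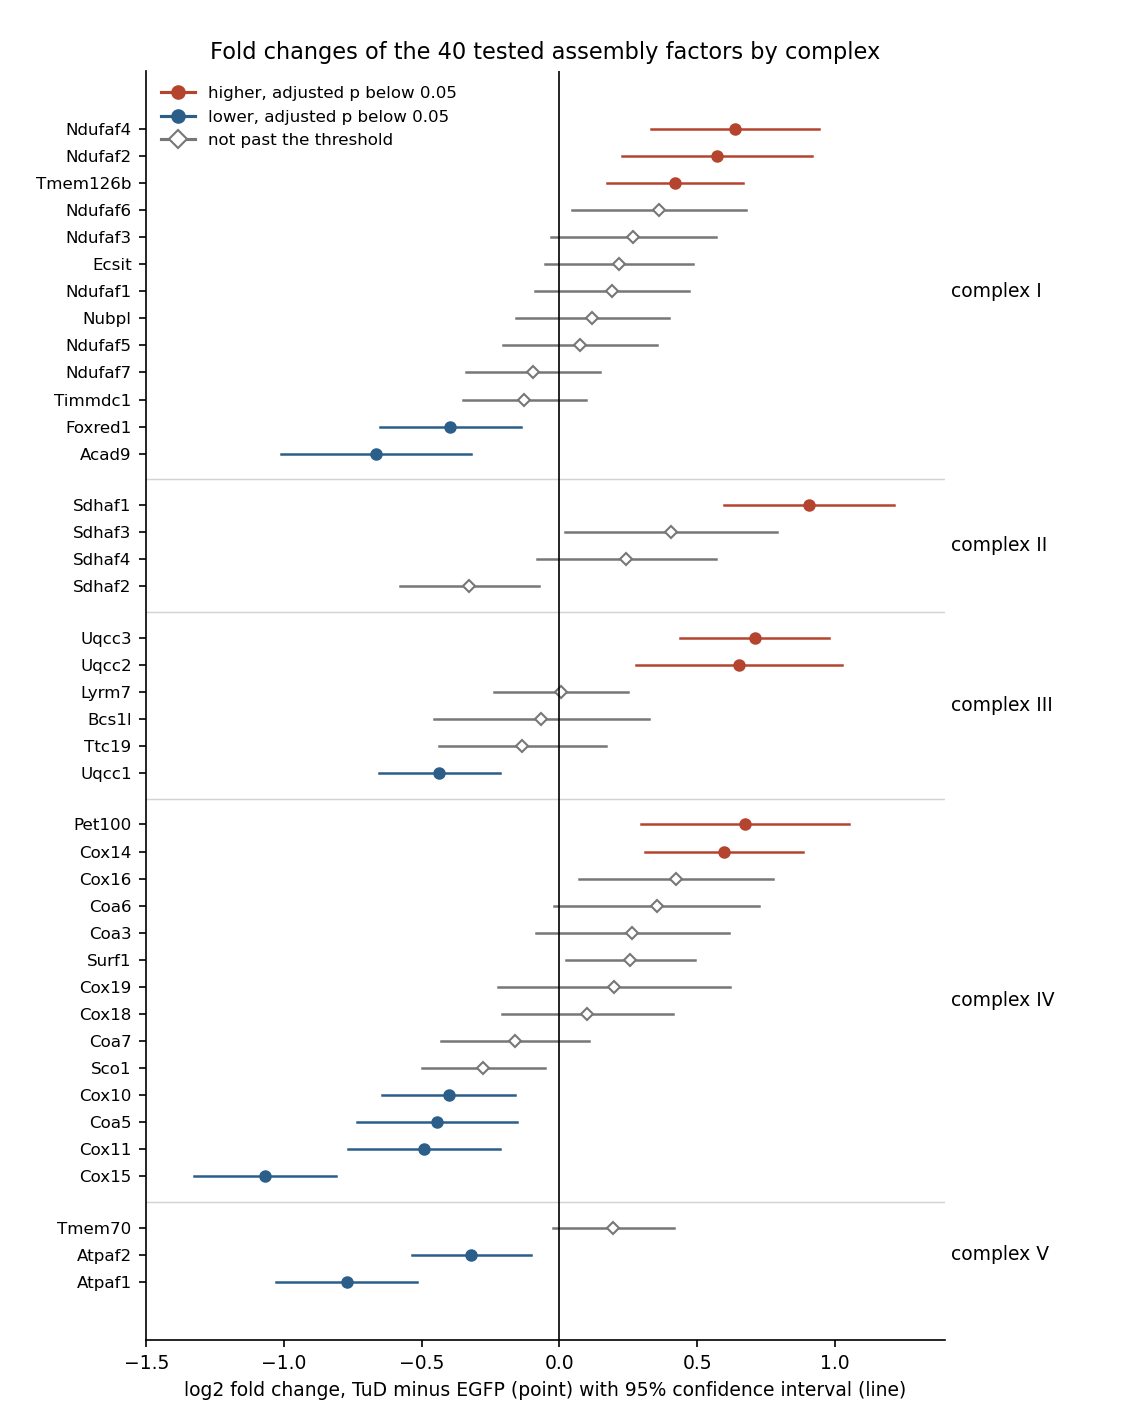
Log2 fold change (x axis, TuD minus EGFP, point) of the 40 tested assembly factors with its 95% confidence interval (line), by complex from I at the top to V at the bottom; filled red points are higher and filled blue points lower at an adjusted p below 0.05. Each of the 5 complexes has members on both sides of 0, and the points run from Cox15 at -1.07 to Sdhaf1 at +0.91. With values rescaled to TPM 1 member was higher and 15 lower, beside 438 higher and 4202 lower of all 10460 tested genes.

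Of the 13 complex I assembly factors, 3 rose (Ndufaf4, Ndufaf2 and Tmem126b) and 2 fell (Acad9 and Foxred1). Their median log2 fold change was +0.19, and 9 of 13 were positive. Ndufaf4 (ENSMUSG00000028261, chr4:24898083-24905001, plus strand) works with Ndufaf3 on the module that binds ubiquinone. Its normalised FPKM were 14.9, 11.8 and 11.4 in TuD replicates 1, 2 and 3, against 8.55, 7.06 and 8.22 in EGFP replicates 1, 2 and 3. All TuD values lay above all EGFP values, with TuD replicate 1 the highest. The log2 fold change was +0.64 ± 0.13 (SE, adjusted p = 0.0110). Its partner Ndufaf3 had a log2 fold change of +0.27 ± 0.13 (SE, adjusted p = 0.153) and did not pass. Ndufaf2 (ENSMUSG00000068184, chr13:108002715-108158623, minus strand), which holds the place of a late subunit until the arm that oxidises NADH is joined, had 8.89, 10.4 and 6.90 normalised FPKM in TuD hearts, against 5.68, 5.20 and 6.02 in EGFP hearts. The groups did not overlap, and TuD replicate 3 came nearest to the EGFP values. The log2 fold change of Ndufaf2 was +0.57 ± 0.15 (SE, adjusted p = 0.0249). Foxred1 (ENSMUSG00000039048, chr9:35204206-35211055, minus strand), a flavoprotein of late assembly, had 17.2, 15.8 and 19.2 normalised FPKM in TuD hearts and 21.2, 24.0 and 23.9 in EGFP hearts. Every TuD value lay below every EGFP value, and the log2 fold change was -0.40 ± 0.11 (SE, adjusted p = 0.0315).

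Ndufaf4 was not past the threshold with TPM (adjusted p = 0.126), with the length and GC correction (0.162) or with a covariate for Y-linked transcripts (0.0990), a fit in which the TuD estimate rests on TuD replicate 3. Ndufaf2 was not past it with TPM (0.240), with no filter on low values (0.0715), with the Y-linked covariate (0.258), without TuD replicate 1 (0.0701) or 2 (0.0626), or without EGFP replicate 1 (0.0627), 2 (0.0885) or 3 (0.0546), and Foxred1 was not with no filter (0.0594), with the length correction (0.0526), with the length and GC correction (0.0746), with the Y-linked covariate (0.253), without TuD replicate 1 (0.0819) or 2 (0.0758), or without EGFP replicate 2 (0.105) or 3 (0.108). In GENCODE M21, 65.7% of the exon bases of Ndufaf2 lie opposite exons of B230220B15Rik, which was at 0 in all 6 libraries; without a stated strand setting, reads of 2 overlapping genes cannot be told apart.

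Acad9 and Tmem126b belong, with Ndufaf1, Ecsit and Timmdc1, to the intermediate assembly complex that builds the membrane arm of complex I, and these 2 went opposite ways while the other 3 did not pass. Acad9 (ENSMUSG00000027710, chr3:36065979-36092853, plus strand), an acyl-CoA dehydrogenase relative that acts in assembly, had 2.75, 2.83 and 4.09 normalised FPKM in TuD hearts, against 5.33, 5.14 and 5.51 in EGFP hearts. TuD replicate 3 was the highest of its group and still below every EGFP value. The log2 fold change of Acad9 was -0.67 ± 0.15 (SE, adjusted p = 0.0143). Tmem126b (ENSMUSG00000030614, chr7:90467438-90476001, minus strand), a membrane protein of the same complex, had 6.69, 5.94 and 6.31 normalised FPKM in TuD hearts and 4.27, 4.53 and 4.98 in EGFP hearts. Every TuD value of Tmem126b lay above every EGFP value, with a log2 fold change of +0.42 ± 0.11 (SE, adjusted p = 0.0227). Ecsit, which joins this complex in addition to its signalling role, had the highest mean level of the complex I factors, 55.0, 58.9 and 47.1 normalised FPKM in TuD hearts and 43.1, 49.7 and 45.2 in EGFP hearts. Its groups overlapped, and the log2 fold change was +0.22 ± 0.12 (SE, adjusted p = 0.193). Ndufaf1, the chaperone at the centre of this complex, had a log2 fold change of +0.19 ± 0.12 (SE, adjusted p = 0.262), and Timmdc1, a membrane protein of it, had one of -0.13 ± 0.10 (SE, adjusted p = 0.347). With TPM the estimates of Ecsit (-0.17) and Ndufaf1 (-0.19) were negative. The call of Acad9 was lost without EGFP replicate 3 (adjusted p = 0.0503) and when the Y-linked covariate was added (0.134). That of Tmem126b was lost with TPM (0.710), with the length and GC correction (0.220), with the Y-linked covariate (0.103), and without TuD replicate 1 (0.0726), EGFP replicate 1 (0.0727) or EGFP replicate 2 (0.0743).

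The remaining complex I factors did not pass. Ndufaf6, which acts early on the ubiquinone module, had 24.7 ± 4.09 normalised FPKM in TuD hearts and 19.0 ± 1.78 in EGFP hearts and its groups did not overlap (log2 fold change +0.36 ± 0.14, adjusted p = 0.0807). Without TuD replicate 3 it was past the threshold (adjusted p = 0.0359). Ndufaf5 and Ndufaf7 modify arginine residues of core subunits, by hydroxylation and methylation, and had log2 fold changes of +0.08 ± 0.12 (SE, adjusted p = 0.672) and -0.09 ± 0.11 (SE, adjusted p = 0.525). Nubpl, which delivers iron-sulfur clusters to complex I, was the least abundant factor of this complex at 2.56 ± 0.281 normalised FPKM in TuD hearts and 2.31 ± 0.120 in EGFP hearts, with a log2 fold change of +0.12 ± 0.12 (SE, adjusted p = 0.484).

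Complex II has 4 assembly factors, and Sdhaf1 had the highest log2 fold change of all 40 tested members. Sdhaf1 (ENSMUSG00000074211, chr7:30321406-30323895, minus strand) helps the iron-sulfur subunit of succinate dehydrogenase to acquire its clusters. It had 5.21, 5.97 and 4.63 normalised FPKM in TuD replicates 1, 2 and 3, against 2.62, 2.24 and 2.87 in EGFP replicates 1, 2 and 3, from 192 to 215 reads in TuD hearts and 110 to 136 reads in EGFP hearts. The lowest TuD value was well above the highest EGFP value. The ratio of the means was 2.05 and the log2 fold change was +0.91 ± 0.13 (SE, adjusted p = 0.00404). Its call held in each of the 19 alternative fits that tested it, with adjusted p from 0.00285 to 0.0393. In GENCODE M21, 69.6% of its exon bases and 100% of its coding bases lie opposite exons of E130208F15Rik, which was at 0 in all 6 libraries. All 1733 bases of E130208F15Rik are shared with Sdhaf1, and how shared reads were counted is not given in the sources used here. The 0 of E130208F15Rik therefore cannot be read as no expression, and which bases of Sdhaf1 its reads cover is not known.

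The other 3 complex II factors did not pass. Sdhaf4, which binds the flavin-bearing subunit before it meets its partner, was the most abundant of them, with 46.2, 50.8 and 37.7 normalised FPKM in TuD hearts and 33.5, 42.7 and 37.0 in EGFP hearts. The 2 groups overlapped, with a log2 fold change of +0.24 ± 0.14 (SE, adjusted p = 0.223). Sdhaf3, a second helper of the iron-sulfur subunit, was near the detection filter at 1.44 ± 0.377 normalised FPKM in TuD hearts and 0.946 ± 0.0804 in EGFP hearts, and its groups did not overlap (log2 fold change +0.41 ± 0.17, adjusted p = 0.101). Sdhaf2, needed to attach the flavin, had 15.6 ± 1.63 normalised FPKM in TuD hearts and 19.7 ± 0.863 in EGFP hearts, again without overlap, and a log2 fold change of -0.33 ± 0.11 (SE, adjusted p = 0.0555). It was past the threshold, lower, with TPM (adjusted p = 0.00513), with the length and GC correction (0.0215) and with a filter at an FPKM of 5 (0.0437).

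The 6 factors of complex III serve 2 steps. The 3 factors of cytochrome b synthesis and early assembly all passed, Uqcc3 and Uqcc2 as higher and Uqcc1 as lower, while none of the 3 factors that insert or turn over the Rieske iron-sulfur protein did; the difference between the steps was not tested. Uqcc1 and Uqcc2 form a pair that binds newly made cytochrome b, and Uqcc3 acts after them when heme is added. Uqcc2 (ENSMUSG00000024208, chr17:27122663-27133916, minus strand) was the most abundant factor of this complex, with 212, 294 and 192 normalised FPKM in TuD hearts, against 139, 144 and 155 in EGFP hearts. TuD replicate 2 stood far above the other TuD libraries, and all 3 were above the EGFP hearts. The log2 fold change of Uqcc2 was +0.65 ± 0.16 (SE, adjusted p = 0.0210). Uqcc3 (ENSMUSG00000071654, chr19:8880016-8880933, minus strand) had 79.2, 87.9 and 68.7 normalised FPKM in TuD hearts and 44.9, 49.8 and 48.3 in EGFP hearts, again with no overlap. Its ratio of means was 1.65 and its log2 fold change +0.71 ± 0.12 (SE, adjusted p = 0.00565). Uqcc1 (ENSMUSG00000005882, chr2:155846894-155930310, minus strand) had 29.5, 27.9 and 27.9 normalised FPKM in TuD hearts, against 36.2, 39.2 and 40.5 in EGFP hearts. Both groups were tight and separate, and the log2 fold change was -0.44 ± 0.10 (SE, adjusted p = 0.0129), opposite in sign to that of its partner Uqcc2.

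The call of Uqcc3 was lost with TPM (adjusted p = 0.0761) and with the length correction (0.0522). Uqcc2 lost its call with TPM (0.206), quantile normalisation (0.0673), no filter (0.0667), correction for length (0.191), correction for length and GC (0.0663) and the Y-linked covariate (0.201), and without EGFP replicate 1 (0.0642), 2 (0.0701) or 3 (0.0503). Uqcc1 lost it with the covariate (0.0596), with the length and GC correction (0.0574), and without EGFP replicate 2 (0.0517) or 3 (0.0616).

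None of the Rieske group passed. Lyrm7, the chaperone of the Rieske protein in the matrix, had the log2 fold change nearest to 0 of all tested members. Its values were 4.12, 4.13 and 4.59 normalised FPKM in TuD hearts and 4.30, 4.47 and 4.02 in EGFP hearts. The groups overlapped, and the log2 fold change was +0.0045 (95% confidence interval -0.24 to 0.25, adjusted p = 0.978). Bcs1l, the ATPase that moves the folded Rieske protein across the membrane, had 17.8, 20.9 and 13.3 normalised FPKM in TuD hearts and 15.6, 19.0 and 19.2 in EGFP hearts. TuD replicate 3 was the lowest of the 6 and TuD replicate 2 the highest, and the log2 fold change was -0.07 (95% confidence interval -0.46 to 0.32, adjusted p = 0.798). Ttc19, which clears fragments of the processed Rieske protein, had a log2 fold change of -0.13 ± 0.13 (SE, adjusted p = 0.467). The interval of Bcs1l reaches the size of the change seen for Uqcc1, and that of Lyrm7 does not. With TuD replicate 3 left out the estimate of Bcs1l was +0.11.

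**Figure D2:**
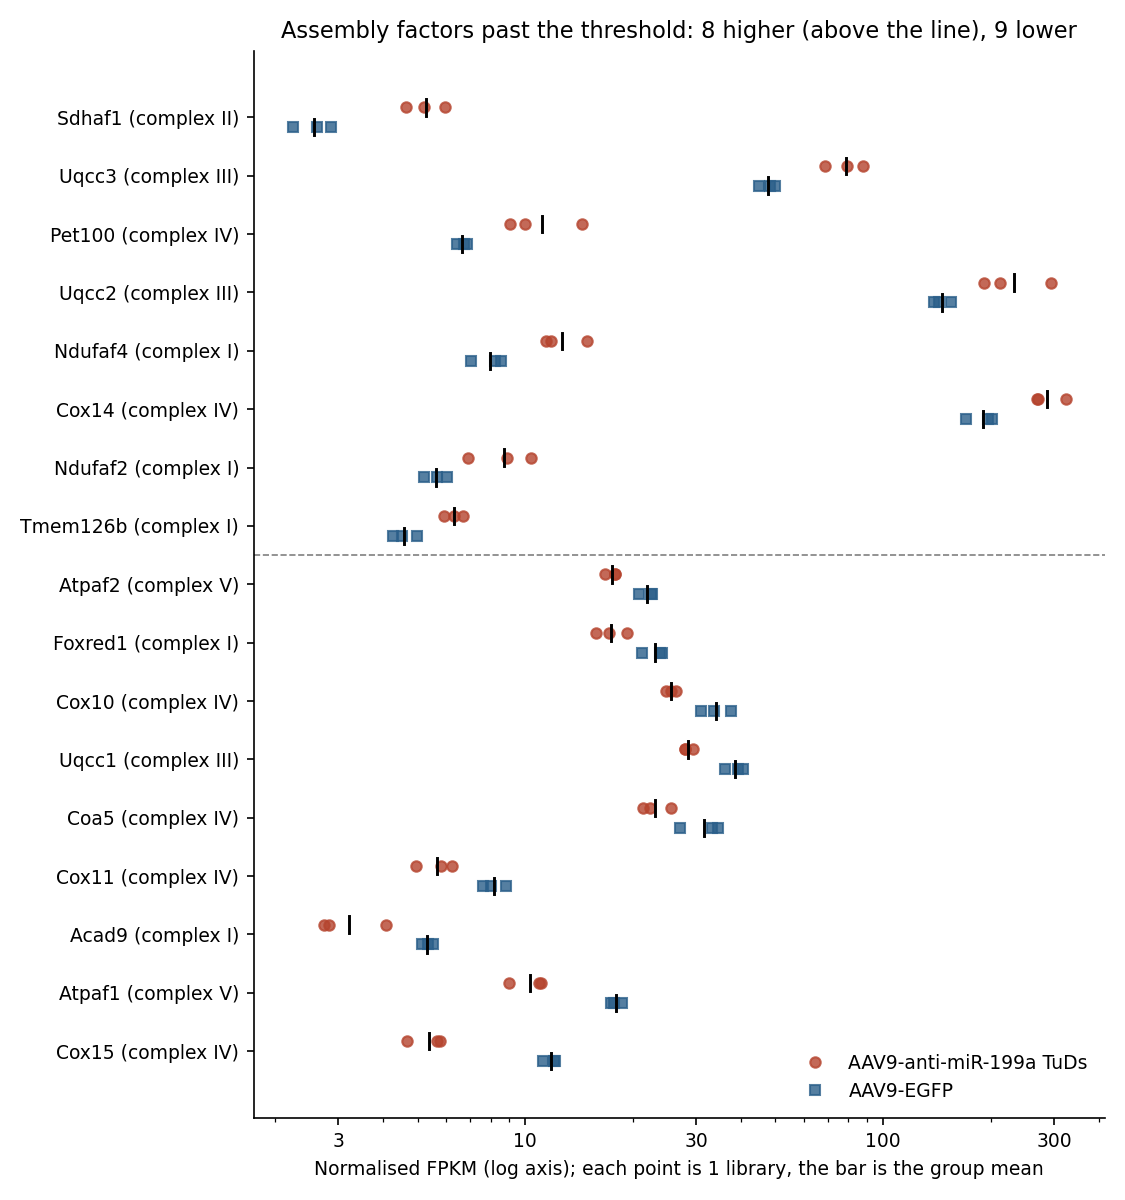
Normalised FPKM (x axis, log scale) of the 17 assembly factors past the threshold in each library, TuD (circles) above EGFP (squares) within each gene, with a bar at each group mean; the 8 higher members stand above the dashed line and the 9 lower ones below it. No member's groups overlap, and Sdhaf1 at the top and Cox15 at the bottom are the widest apart; with values rescaled to TPM the 9 lower members stayed past the threshold and of the 8 higher ones Sdhaf1 did.

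Complex IV, cytochrome c oxidase, has the most factors, and of its 14 tested members 2 rose (Pet100 and Cox14) and 4 fell (Cox15, Cox11, Coa5 and Cox10). The 2 enzymes that make heme A, the heme found in cytochrome c oxidase, both fell. Cox15 (ENSMUSG00000040018, chr19:43733254-43753000, minus strand), heme A synthase, had 5.65, 4.68 and 5.77 normalised FPKM in TuD replicates 1, 2 and 3, against 12.0, 11.2 and 12.1 in EGFP replicates 1, 2 and 3. Every TuD value lay far below every EGFP value. The mean in EGFP hearts was 2.19 times that in TuD hearts, and the log2 fold change was -1.07 ± 0.11 (SE, adjusted p = 0.00194), the lowest of all members. Cox10 (ENSMUSG00000042148, chr11:63962627-64079468, minus strand), the farnesyltransferase that acts on heme just before Cox15, had 26.3, 24.8 and 25.6 normalised FPKM in TuD hearts and 30.9, 37.6 and 33.6 in EGFP hearts. The TuD values were tight and all below the EGFP values, with a log2 fold change of -0.40 ± 0.11 (SE, adjusted p = 0.0244). Cox15 kept its call in each of the 20 alternative fits (adjusted p from 0.000629 to 0.0169), whereas Cox10 lost it with the Y-linked covariate (0.109), without TuD replicate 1 (0.0557) or 2 (0.0556), and without EGFP replicate 2 (0.0925) or 3 (0.0764). Of the 8 general heme synthesis enzymes, which make the heme that Cox10 uses, 1 fell, none rose and the median log2 fold change was -0.13, while 4 were lower with TPM, 3 with quantile normalisation, and 2 without TuD replicate 1 or 3, and 1 was higher with quantile normalisation and with the length correction. Among all tested genes 15.0% were higher and 14.3% lower. The 1 heme synthesis enzyme that fell was Cpox, coproporphyrinogen oxidase, with 3.94 ± 0.652 normalised FPKM in TuD hearts and 7.02 ± 0.796 in EGFP hearts (log2 fold change -0.76 ± 0.14, adjusted p = 0.00787). Ppox, protoporphyrinogen oxidase, had 3.70 ± 0.162 normalised FPKM in TuD hearts and 2.88 ± 0.184 in EGFP hearts (log2 fold change +0.32 ± 0.11, adjusted p = 0.0590).

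Copper is the other cofactor of this enzyme. Cox11 (ENSMUSG00000020544, chr11:90638173-90644931, plus strand), which inserts copper into COX1, had 5.80, 4.96 and 6.25 normalised FPKM in TuD hearts, against 8.01, 8.86 and 7.62 in EGFP hearts. No TuD value reached the lowest EGFP value, and the log2 fold change was -0.49 ± 0.12 (SE, adjusted p = 0.0189). Cox11 lost its call without EGFP replicate 2 (adjusted p = 0.0725) and when the Y-linked covariate was added (0.157), and 48.4% of its exon bases lie opposite exons of Tom1l1, which did not pass (log2 fold change -0.16, adjusted p = 0.361). Sco1 and Coa6, which serve the copper site of COX2, both had groups that did not overlap, and neither passed. Sco1 had 6.24 ± 0.225 normalised FPKM in TuD hearts and 7.66 ± 0.348 in EGFP hearts (log2 fold change -0.28 ± 0.10, adjusted p = 0.0648), and Coa6 had 26.3 ± 4.22 normalised FPKM in TuD hearts and 20.6 ± 3.55 in EGFP hearts (log2 fold change +0.35 ± 0.16, adjusted p = 0.133). Sco1 passed as lower with TPM (0.00464) and with the length and GC correction (0.0446). Cox19, a copper-binding protein of the intermembrane space known from yeast to work with Cox11, had a log2 fold change of +0.20 ± 0.18 (SE, adjusted p = 0.438) with overlapping groups, and without TuD replicate 3 it passed as higher (0.0273). Outside the member list, 3 of 6 tested genes of cellular copper delivery rose and none fell (median +0.37), though none passed as higher and 1 as lower with TPM, 1 as higher and 1 as lower with the length correction, and 1 as higher with the Y-linked covariate. The shares over all tested genes were 15.0% higher and 14.3% lower. Ccs, the copper chaperone of superoxide dismutase, had 32.7 ± 3.79 normalised FPKM in TuD hearts and 19.1 ± 1.43 in EGFP hearts (log2 fold change +0.75 ± 0.12, adjusted p = 0.00464), and Atox1, which carries copper to the secretory pathway, had 148 ± 28.9 normalised FPKM in TuD hearts and 88.2 ± 7.94 in EGFP hearts (log2 fold change +0.72 ± 0.15, adjusted p = 0.0114).

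Cox14, Coa3 and Surf1 act on COX1, the catalytic subunit, soon after it is made. Cox14 (ENSMUSG00000023020, chr15:99725618-99728136, plus strand) binds newly made COX1 and was the most abundant of all the members. It had 268, 324 and 270.5 normalised FPKM in TuD hearts and 171, 196 and 201 in EGFP hearts. TuD replicate 2 was again the highest, and the lowest TuD value exceeded the highest EGFP value. The ratio of means was 1.52 and the log2 fold change +0.60 ± 0.12 (SE, adjusted p = 0.0109). Its partner Coa3 had 129 ± 22.4 normalised FPKM in TuD hearts and 107 ± 12.7 in EGFP hearts, with overlapping groups (log2 fold change +0.27 ± 0.15, adjusted p = 0.217). Surf1, linked to heme insertion and to Leigh syndrome in humans, had 23.9 ± 1.84 normalised FPKM in TuD hearts and 19.8 ± 1.07 in EGFP hearts, without overlap (log2 fold change +0.26 ± 0.10, adjusted p = 0.0903). Neither passed. Cox14 lost its call with TPM (adjusted p = 0.274), when corrected for length (0.281) or for length and GC (0.0824), and with the Y-linked covariate (0.0858). The estimate of Coa3 was negative with TPM (-0.12), with the length correction (-0.15) and with the length and GC correction (-0.06), and that of Surf1 with TPM (-0.12).

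Among the other complex IV factors, Pet100 rose and Coa5 fell. Pet100 (ENSMUSG00000087687, chr8:3621548-3625848, plus strand), which brings together an assembly intermediate of the enzyme, had 10.01, 14.4 and 9.07 normalised FPKM in TuD hearts, against 6.43, 6.74 and 6.86 in EGFP hearts. The EGFP values were nearly alike, and TuD replicate 2 stood above the other TuD libraries. The log2 fold change of Pet100 was +0.67 ± 0.16 (SE, adjusted p = 0.0189). Coa5 (ENSMUSG00000026112, chr1:37417084-37430103, minus strand), an early assembly factor whose mutation causes cardiomyopathy in humans, had 25.5, 22.3 and 21.4 normalised FPKM in TuD hearts and 34.6, 33.3 and 27.0 in EGFP hearts. The highest TuD value, in replicate 1, came close to the lowest EGFP value, in replicate 3, without reaching it. The log2 fold change of Coa5 was -0.44 ± 0.13 (SE, adjusted p = 0.0331). Coa7, a heme-binding protein of the intermembrane space, had a log2 fold change of -0.16 ± 0.12 (SE, adjusted p = 0.325). For COX2, Cox18, which moves its tail across the membrane, had a log2 fold change of +0.10 ± 0.14 (SE, adjusted p = 0.601), and Cox16, which joins it to the enzyme, had 2.65 ± 0.564 normalised FPKM in TuD hearts and 1.83 ± 0.182 in EGFP hearts, without overlap (log2 fold change +0.42 ± 0.15, adjusted p = 0.0707). Of the exon bases of Cox16, 56.8% lie in exons of Gm20498 on the same strand, as do 74.5% of its coding bases. How shared reads were counted is not given, so the low level of Cox16 cannot be read as low expression. Pet100 was not past the threshold with TPM (adjusted p = 0.144), no filter (0.0604) or the Y-linked covariate (0.185), or without EGFP replicate 1 (0.0558), 2 (0.0587) or 3 (0.0512), and 52.6% of its exon bases lie opposite exons of Pcp2, which was at 0 in all 6 libraries. Coa5 was not past it with no filter (0.0752), the length correction (0.0651) or the Y-linked covariate (0.0762), or without TuD replicate 2 (0.0784) or 3 (0.0620) or EGFP replicate 1 (0.103) or 2 (0.111).

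The 4 members that were not tested all belong to complex IV. Cox20, a chaperone of COX2, had 0.0783 to 0.749 normalised FPKM in TuD hearts and 0.172 to 0.536 in EGFP hearts, from 1 to 11 reads. Cox17, the copper donor to Sco1, Sco2 and Cox11, had 0.135 to 0.341 in TuD hearts and 0.1002 to 0.230 in EGFP hearts, from 11 to 30 reads. Pet117 and Sco2 were listed at 0 in all 6 libraries. These 4 genes share transcribed bases with neighbours. In GENCODE M21, 100% of the exon bases of Pet117 lie in exons of Kat14 on the same strand, 91.8% of those of Sco2 in exons of Tymp or Ncaph2, and 91.1% of those of Cox20 opposite Hnrnpu. For Cox17, 100% of the coding bases but 4.45% of all exon bases lie in Gm21987 on the same strand. In all, 20 of the 44 members share exon bases with another gene, and without these 5 members were higher and 5 lower. These counts come from fewer genes than the 8 higher and 9 lower of the 40 tested. Among all tested genes 15.0% were higher and 14.3% lower. How reads shared by 2 genes were counted is not given in the sources used here, so the low values of these 4 genes cannot be read as low expression.

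Of the 3 factors of complex V, the 2 chaperones of its catalytic head fell. Atpaf1 (ENSMUSG00000028710, chr4:115784812-115818828, plus strand), which holds the beta subunit, had 10.9, 8.99 and 11.1 normalised FPKM in TuD replicates 1, 2 and 3, against 17.4, 18.7 and 17.8 in EGFP replicates 1, 2 and 3. The EGFP values were tight and all far above the TuD values. The mean in EGFP hearts was 1.74 times that in TuD hearts, and the log2 fold change was -0.77 ± 0.11 (SE, adjusted p = 0.00384). Atpaf2 (ENSMUSG00000042709, chr11:60400626-60418457, minus strand), which holds the alpha subunit, had 17.4 ± 0.624 normalised FPKM in TuD hearts and 21.9 ± 1.03 in EGFP hearts, without overlap, and a log2 fold change of -0.32 ± 0.09 (SE, adjusted p = 0.0362). Tmem70, which helps to assemble the membrane ring of the enzyme, was the most abundant of the 3, with 45.0, 46.9 and 42.6 normalised FPKM in TuD hearts and 39.9, 37.1 and 40.1 in EGFP hearts. Its TuD values lay a little above its EGFP values, and the log2 fold change was +0.20 ± 0.10 (SE, adjusted p = 0.151), with a negative estimate under TPM (-0.19). Atpaf1 kept its call in each of the 20 alternative fits (adjusted p from 0.00117 to 0.0356). Atpaf2 lost it with the Y-linked covariate (0.0893) and without TuD replicate 1 (0.0766), 2 (0.0569) or 3 (0.0591) or EGFP replicate 1 (0.0571), 2 (0.116) or 3 (0.130).

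Across the 17 members past the threshold, all kept their sign in each alternative fit that tested them (20 fits, of which 19 tested Sdhaf1), 6 stayed past the threshold whichever single library was left out (Cox14, Uqcc3, Atpaf1, Ndufaf4, Cox15 and Sdhaf1), and 3 stayed past it in every alternative fit that tested them (Cox15, Atpaf1 and Sdhaf1). Without EGFP replicate 2 the counts were 4 members higher and 3 lower, without EGFP replicate 1 they were 4 and 7, without EGFP replicate 3 they were 5 and 4, without TuD replicate 2 they were 7 and 5, and with the Y-linked covariate they were 3 and 2. Over all tested genes the counts with that covariate were 651 higher and 529 lower. Of the TuD libraries, replicate 3 came nearest to the EGFP mean for 6 of the 8 higher members and 5 of the 9 lower ones.

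The same counts were made for the subunits that these factors assemble. Of all 10460 tested genes 15.0% were higher and 14.3% lower, and with TPM 438 genes were higher and 4202 lower. None of the nuclear subunits of any complex fell, and 28 of 36 rose in complex I, 1 of 4 in complex II, 5 of 9 in complex III, 11 of 14 in complex IV and 12 of 14 in complex V, whereas with TPM 13, 0, 2, 6 and 5 rose and 2, 1, 1, 0 and 0 fell. With the Y-linked covariate 11, 0, 3, 4 and 4 were higher and 1 was lower, in complex I, and with quantile normalisation 20, 0, 3, 5 and 7 were higher and 1, 1, 1, 0 and 0 lower. In complex II, 1 gene was higher and 1 lower without TuD replicate 3, and none was higher whichever of the other 5 libraries was left out. Their median log2 fold changes were +0.67, +0.07, +0.69, +0.73 and +0.67, against +0.19, +0.32, -0.03, +0.15 and -0.32 for the assembly factors of the same complexes. The subunit medians were +0.29, -0.32, +0.31, +0.34 and +0.28 with TPM and +0.41, -0.08, +0.19, +0.35 and +0.55 with the length correction, so that of complex II turned negative under both. In complex I, Ndufa6 had 295 ± 39.7 normalised FPKM in TuD hearts and 139 ± 10.2 in EGFP hearts (log2 fold change +1.08 ± 0.13, adjusted p = 0.00241) and Ndufa2 had 952 ± 135 normalised FPKM in TuD hearts and 429.6 ± 27.6 in EGFP hearts (log2 fold change +1.14 ± 0.14, adjusted p = 0.00241). In complex III, Uqcrh, the hinge protein, had 852 ± 104 normalised FPKM in TuD hearts and 450.2 ± 14.6 in EGFP hearts (log2 fold change +0.91 ± 0.13, adjusted p = 0.00355). In complex IV, Cox6c had 345 ± 51.5 normalised FPKM in TuD hearts and 128 ± 13.6 in EGFP hearts (log2 fold change +1.42 ± 0.14, adjusted p = 0.00194). In the ATP synthase, Atp5l, subunit g, had 88.2 ± 12.0 normalised FPKM in TuD hearts and 40.3 ± 2.39 in EGFP hearts (log2 fold change +1.11 ± 0.12, adjusted p = 0.00204). In complex II, Sdhb, the iron-sulfur subunit served by Sdhaf1, had 798 ± 104 normalised FPKM in TuD hearts and 574 ± 38.8 in EGFP hearts (log2 fold change +0.47 ± 0.13, adjusted p = 0.0337), and Sdha, the flavin subunit served by Sdhaf2 and Sdhaf4, had 348 ± 64.7 normalised FPKM in TuD hearts and 424 ± 21.8 in EGFP hearts (log2 fold change -0.30 ± 0.15, adjusted p = 0.156). Of the 13 mitochondrially encoded subunits 6 rose and none fell (median +1.10), with 5 higher and none lower under TPM and 1 in each direction under the length and GC correction (median +0.03). The count of higher ones was 1 without TuD replicate 1, 1 without TuD replicate 2, 3 without EGFP replicate 2, 2 without EGFP replicate 3, 1 with the Y-linked covariate, 2 with the length correction, 3 with quantile normalisation, 3 with robust eBayes and 1 with no filter. Among them mt-Atp6, of the ATP synthase, had 1940.0 ± 433 normalised FPKM in TuD hearts and 308 ± 205 in EGFP hearts (log2 fold change +2.85 ± 0.44, adjusted p = 0.00451). The difference between the 2 kinds of list was not tested.

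**Figure D3:**
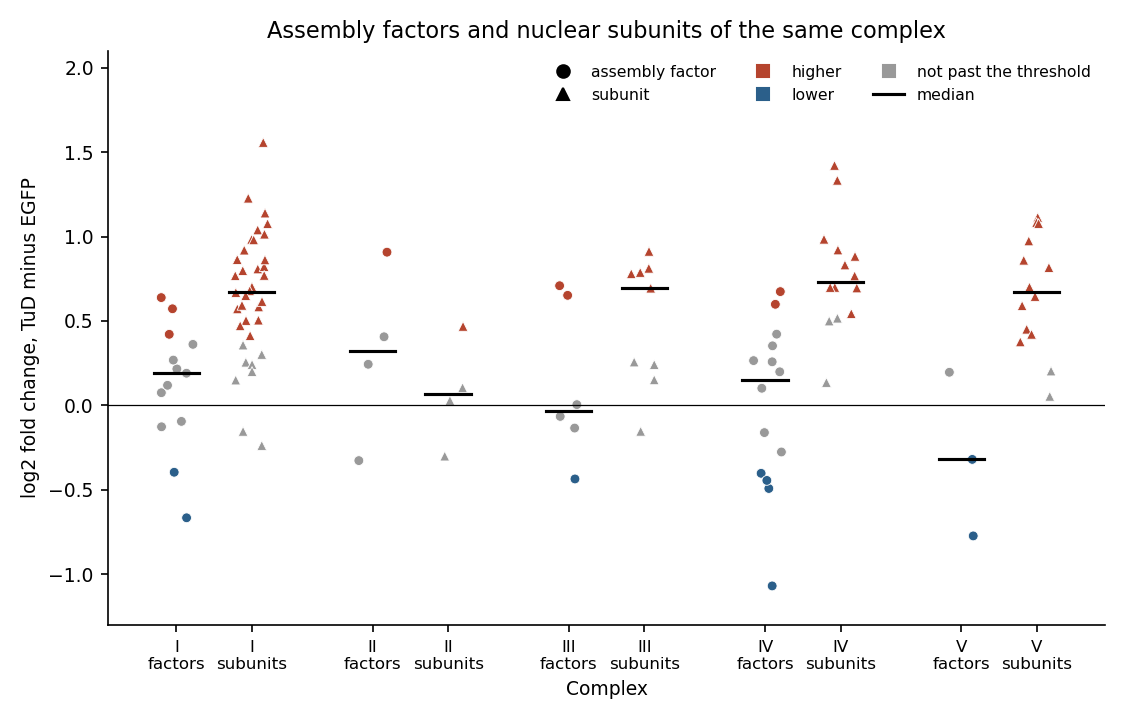
Log2 fold change (y axis, TuD minus EGFP) of each tested assembly factor (circle) beside each nuclear subunit (triangle) of complexes I to V, with the median of each list as a bar; red is higher, blue lower and grey not past the threshold. Blue points occur among the assembly factors of complexes I, III, IV and V and not among the subunits, although 4 nuclear subunits were lower with values rescaled to TPM, 3 with quantile normalisation and 1 with the Y-linked covariate.

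Related lists that serve the same assembly lines gave mixed counts, to be read beside 15.0% higher and 14.3% lower among all tested genes. Of 22 tested other assembly and biogenesis factors 7 rose and 2 fell (median +0.16). Among them Cmc1, a twin-cysteine protein of complex IV assembly, had 15.4 ± 0.747 normalised FPKM in TuD hearts and 7.73 ± 0.775 in EGFP hearts (log2 fold change +0.96 ± 0.11, adjusted p = 0.00219), and Taco1, which activates translation of COX1, had 12.4 ± 2.40 normalised FPKM in TuD hearts and 34.7 ± 6.03 in EGFP hearts (log2 fold change -1.45 ± 0.17, adjusted p = 0.00227). Taco1 is a translation factor upstream of the same subunit that Cox14 and Coa3 bind. Of 10 genes of the intermembrane-space disulfide relay, a list of the relay's own proteins and of proteins it imports, 5 rose and none fell (median +0.36). Timm9, a small chaperone of that space, had 4.07 ± 0.174 normalised FPKM in TuD hearts and 2.18 ± 0.292 in EGFP hearts (log2 fold change +0.78 ± 0.12, adjusted p = 0.00487). Chchd4, Gfer and Aifm1, which belong to the relay itself, did not pass. Their log2 fold changes were -0.018, -0.035 and +0.0063 (adjusted p = 0.921, 0.860 and 0.968). Of 14 tested iron-sulfur cluster genes 2 rose and 1 fell (median +0.28); Iba57, which matures the larger clusters, had 5.08 ± 0.0657 normalised FPKM in TuD hearts and 9.15 ± 0.855 in EGFP hearts (log2 fold change -0.79 ± 0.11, adjusted p = 0.00337), and Iscu, the scaffold, had 81.3 ± 1.60 normalised FPKM in TuD hearts and 61.8 ± 6.39 in EGFP hearts (log2 fold change +0.40 ± 0.11, adjusted p = 0.0277). Of 13 coenzyme Q synthesis genes 1 rose and 4 fell (median -0.20). Coq7, a hydroxylase of that pathway, had 28.3 ± 1.85 normalised FPKM in TuD hearts and 15.2 ± 0.863 in EGFP hearts (log2 fold change +0.88 ± 0.10, adjusted p = 0.00227), and Coq8a had 118 ± 5.31 normalised FPKM in TuD hearts and 170.0 ± 10.01 in EGFP hearts (log2 fold change -0.52 ± 0.10, adjusted p = 0.00916). Of 9 inner-membrane proteases and prohibitins none rose and 1 fell (median +0.02), and that one was Afg3l2, a subunit of the matrix AAA protease, with 53.1 ± 6.97 normalised FPKM in TuD hearts and 71.7 ± 4.78 in EGFP hearts (log2 fold change -0.44 ± 0.12, adjusted p = 0.0329). With TPM these 5 lists had 1, 1, 0, 1 and 0 genes higher and 6, 0, 5, 11 and 3 lower, and their medians were -0.21, -0.03, -0.09, -0.58 and -0.36. Over all 10460 tested genes TPM gave 438 higher and 4202 lower, with a median of -0.36. Single libraries also moved the counts of these lists. Of the other assembly and biogenesis factors, 4 were higher without TuD replicate 1 and whichever EGFP replicate was left out, and 1 was lower whichever library other than TuD replicate 3 was left out. Of the disulfide relay genes, 3 were higher without TuD replicate 1 or EGFP replicate 3, 2 without EGFP replicate 1 or 2, and 2 with 1 lower under the length correction (median +0.11). Of the iron-sulfur cluster genes, 6 were higher and 2 lower without TuD replicate 3, and none was higher whichever other library was left out or with the Y-linked covariate. Of the coenzyme Q genes, 2 were lower without TuD replicate 1, 1 without EGFP replicate 2 or 3, and none with the Y-linked covariate. Afg3l2 was not past the threshold, so that none of its list was lower, whichever library other than TuD replicate 3 was left out and with the Y-linked covariate.

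Gene length moved with the fold changes of all genes and of these members. Across the 40 tested members, Pearson's r between log2 fold change and log10 gene length was -0.495, and across all 10460 tested genes it was -0.386; these are correlations across genes of the same 6 libraries, and genes are not independent replicates. Members called higher had a median length of 2139 bases and those called lower 4520 bases. Below 1000 bases 3 of 6 members rose and none fell, with a median of +0.48, beside +0.51 for all tested genes of that length, of which 39.95% were higher and 4.30% lower. From 4000 bases upward 1 of 9 members rose and 5 fell, with a median of -0.40, beside -0.11 for all tested genes of that length, of which 7.16% were higher and 20.7% lower. The assembly factors have a median length of 2844 bases, against 1038 to 2744 bases for the lists of nuclear subunits of each complex. Once the length correction had been applied, r was -0.0937 over the members, 5 were higher and 8 lower. Of all 10460 tested genes 1195 were then higher and 1329 lower. The nuclear subunits then had 23, 1, 3, 7 and 9 genes higher and none lower in complexes I to V. Members of at least 1500 bases had 5 higher and 8 lower, and members under 1500 bases had 3 higher and 1 lower.

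**Figure D4:**
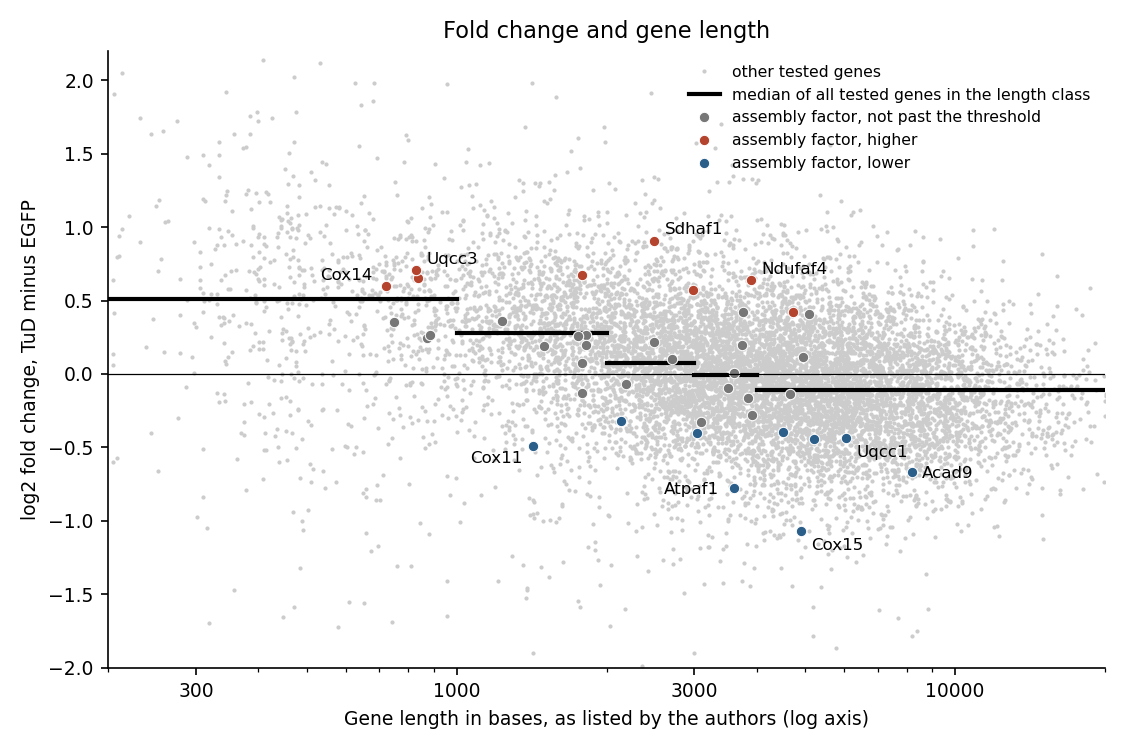
Log2 fold change (y axis, TuD minus EGFP) against gene length in bases (x axis, log scale) for all tested genes (light grey), with the median of all tested genes in each of 5 length classes as a bar; assembly factors are larger points in red (higher), blue (lower) or dark grey (not past the threshold), and genes beyond the axes are not drawn. The medians go down with length, and Sdhaf1, Atpaf1 and Cox15 lie far from the bar of their class.

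A 300-base promoter was found in the RefSeq table (GRCm38.p6) for 38 of the 44 members, and 4 short motifs of factors known to act on nuclear genes for mitochondrial proteins were searched in it on both strands. The core motif of ETS factors such as GABPA, CCGGAAG, was in the promoters of 15 of 38 members (39.5%), beside 20.6% of 7731 tested genes with a promoter and 9.93% of 27025 genes in the table. The YY1 motif AAGATGGC was in 5 of 38 (13.2%, beside 5.70% of tested genes), the NRF1 motif GCGCATGC in 3 (7.89%, beside 6.24%) and the motif AAGGTCA of estrogen-related receptors in 1, Uqcc3 (2.63%, beside 3.83%). The ETS and YY1 strings can share their letters AAG, but in Cox10 and Cox20, which hold both, the matches do not overlap. Members with the ETS motif went both ways. Of the 14 tested, 3 rose, 2 fell and 9 did not pass. Of the 4 tested with the YY1 motif, Tmem126b and Uqcc2 rose and Cox10 and Atpaf2 fell. The windows of 4 called members are shown, both heme A enzymes that fell and 2 members that rose, to set the motif side by side in genes that went opposite ways. They are printed 5′ to 3′ on the gene's strand, with the ETS match in capitals and up to 25 bases on each side.
Cox15 (chr19:43752962-43753018, minus strand, lower): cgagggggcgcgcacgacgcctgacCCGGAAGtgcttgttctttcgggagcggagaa
Cox10 (chr11:64079468-64079524, minus strand, lower): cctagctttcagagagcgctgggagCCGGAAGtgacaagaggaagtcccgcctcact
Cox14 (chr15:99725627-99725667, plus strand, higher): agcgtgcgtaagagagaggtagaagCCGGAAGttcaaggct
Sdhaf1 (chr7:30322337-30322393, minus strand, higher): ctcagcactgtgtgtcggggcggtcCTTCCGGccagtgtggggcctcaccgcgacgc
In Sdhaf1 the motif stands on the opposite strand, so its reverse complement is in capitals. The RefSeq start site of Sdhaf1 also differs from the deposited 5′ end. Its 300-base promoter (chr7:30322326-30322625) lies inside the deposited gene (chr7:30321406-30323895). The window of Sdhaf1 thus falls within the bases counted for the gene and not upstream of them. A match is a description of letters and shows no binding.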

How the data were processed

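RNA of 3 TuD and 3 EGFP samples was measured, grouped by the labels. Per the submitters' processing notes the authors used HISAT2 2.0.5, mm10 and featureCounts 1.5.0-p3; the annotation release, the strand setting and the treatment of shared reads are not given in the sources used here. The deposited values are FPKM with each gene's length, for 54532 genes. Members and gene lists were chosen with earlier results of these data known.

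Normalised FPKM are the deposited FPKM over a size factor (median of ratios, 0.985 to 1.02). The 10460 genes that reached an FPKM of 1 in 3 or more libraries entered a 2-group limma fit (lmFit and eBayes with a trend) on log2(normalised FPKM + 0.5). P-values are two-sided and were adjusted by Benjamini-Hochberg over all 10460, with a threshold of 0.05. FPKM call for a test on the log scale; limma-voom on the recovered reads was an alternative, and it called 8 members higher and 9 lower, and 1592 and 1694 genes in all. Recovered depths were 15.2 to 18.2 M reads (M, megareads).

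Per-library values are given for members past the threshold up to the 16 with the smallest p, for the most abundant member of each complex and for the 2 with fold changes nearest 0. From each related list the 2 genes with the smallest p could be named. Chchd4, Gfer, Aifm1, Slc31a1 and Slc25a3 were named besides these, after seeing the data. Alternatives were 3 scalings, 2 pseudocounts (0.1 and 1), 2 filters, 2 variance models, limma-voom, a replicate block, a length correction (lowess, span 0.3), a Y-linked covariate, 2 stricter thresholds and each library left out. The length and GC correction, the members without shared exon bases and the split at 1500 bases were added after seeing the data. The fit was tested on simulated data. GENCODE M21 matched the deposited coordinates of 42 members and the lengths of 41. Tools were R 4.3.3, limma 3.58.1, Python 3.11.15, numpy 2.4.6, pandas 2.3.3 and matplotlib 3.10.9.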

Additional observations from a re-analysis of the deposited data

How the results depend on the processing

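The main counts were 8 members higher and 9 lower, with a median log2 fold change of +0.15. With TPM they were 1 and 15 (median -0.21), with no filter 5 and 7, and with the length correction 5 and 8 (median -0.0766). With the length and GC correction they were 4 and 9 (median -0.10), with quantile normalisation 7 and 9 (median +0.0736), and with the Y-linked covariate 3 and 2 (median +0.0121). A threshold of 0.01 left 2 and 2, and a 1.5-fold minimum left 6 and 3. Leaving out 1 library gave 4 to 10 higher, 3 to 7 lower and medians of 0.11 to 0.18. Without members that share an exon base the counts were 5 and 5, for members of at least 1500 bases 5 and 8 (median +0.0398), and for shorter members 3 and 1 (median +0.36), from fewer genes counted. For all tested genes (1565 higher, 1498 lower), TPM gave 438 and 4202, no filter 1010 and 956, the threshold of 0.01 gave 575 and 503, the 1.5-fold minimum 950 and 726, the covariate 651 and 529, the length and GC correction 1009 and 1142, and leaving out a library 887 to 1700 and 750 to 1617. The length correction gave 1195 higher and 1329 lower. The same replicate numbers did not deviate together (r of 0.0637, 0.0882 and -0.0554), so the numbers were not used as pairs; with the replicate block 8 members were higher and 6 lower, 1462 and 1199 genes in all, and Cox10 (adjusted p = 0.0519), Atpaf2 (0.0760) and Foxred1 (0.0517) were not past the threshold.

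Sign changes occurred among members that had not passed. With TPM the log2 fold changes were Coa3 -0.12, Ecsit -0.17, Ndufaf1 -0.19, Tmem70 -0.19, Sdhaf4 -0.14, Ndufaf3 -0.11, Surf1 -0.12, Coa6 -0.0276, Ndufaf6 -0.0185, Cox19 -0.18, Ndufaf5 -0.31, Lyrm7 -0.36, Cox18 -0.26 and Nubpl -0.22. With the length correction they were Coa3 -0.15, Ndufaf1 -0.0873, Tmem70 -0.0118, Sdhaf4 -0.18, Coa6 -0.10 and Ndufaf5 -0.14, and with the length and GC correction Coa3 -0.0631, Ndufaf1 -0.19, Tmem70 -0.0514, Sdhaf4 -0.28, Coa6 -0.14, Ndufaf5 -0.19 and Lyrm7 -0.13. The covariate gave Cox19 -0.24 and Ndufaf5 -0.13, and unscaled FPKM Lyrm7 -0.0066. Leaving out 1 library moved Ndufaf5 between -0.0070 and 0.17 (negative without TuD replicate 2), Cox18 between -0.0267 and 0.19 (negative without TuD replicate 1), Lyrm7 between -0.0440 and 0.0349 (negative without TuD replicate 3 or EGFP replicate 3) and Bcs1l between -0.21 and 0.11 (positive without TuD replicate 3). Timmdc1 passed as lower with TPM (adjusted p = 0.0160) and the length correction (0.0424), Ndufaf7 (0.0211), Ttc19 (0.0346) and Coa7 (0.0182) with TPM, and Cox16 as higher with the covariate (0.0401). With TPM the median over all tested genes moved too, from +0.01 to -0.36. The cause of these changes was not tested. With 3 samples a group and 83 reads in the least covered tested value, small changes cannot be told from none.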
